A study of Mus musculus with 27 samples.

Results

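The 9 genes described here, used as markers of reactive astrocytes, were followed across single-nucleus RNA-seq of the mouse hippocampus. They were Gfap, Vim, Serpina3n, Lcn2, Osmr, Cd44, Stat3, Aqp4 and Thbs4, taken by symbol, and each matched 1 of the 31053 genes in the count tables, so that 9 of 9 were found. Their unique molecular identifiers (UMIs, one per captured transcript) were summed for each library and class of nuclei and scaled to the same total in each, giving CPM, a measure of a gene's share of all UMIs of that library and class.

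The 27 libraries fall into 6 groups of the P301S tau transgene and the copies of Cgas, the gene of the cytosolic DNA sensor cGAS. Without the transgene there were 5 libraries labelled Cgas+/+ (3 male, 2 female), 2 labelled Cgas+/- and 2 labelled Cgas-/- (all 4 male), here called tau-free. With it there were 6 each labelled P301S Cgas+/+, P301S Cgas+/- and P301S Cgas-/- (3 male and 3 female each). All mice were adults under 1 year old. The transgene encodes human tau with the P301S mutation under the mouse Prnp promoter, which drives it mainly in neurons, and Cgas-/- is a germline knockout, present in every cell type. The mice came from litters of the same cross and had been through behavioural tests. The study's methods count as many mice per genotype as there are libraries, so each library was taken as 1 mouse. Replicate numbers only name libraries.

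Of 241938 barcodes, 204852 nuclei were kept and 26905 were astrocyte-like, between 354 and 1761 per library, with 1618100 to 4936405 UMIs in that class per library. The class was named from 12 astrocyte markers that include none of the 9 genes, and all 12 were detected, with a summed level of 30944 to 33987 CPM (median 32325) in the tau-free libraries and 22883 to 34886 CPM (median 29670) in the P301S libraries. Cgas itself was not absent from libraries labelled Cgas-/-. In microglia-like nuclei it had UMIs in all 27 libraries, and its level was 51.4 ± 7.04 CPM (SD, n = 6) in the P301S Cgas-/- libraries. The P301S Cgas+/+ libraries had 37.9 ± 11.6 CPM (SD, n = 6), and edgeR's quasi-likelihood test gave an adjusted p of 1 for the difference (unadjusted p = 0.0373). The tau-free libraries were at 35.3 ± 2.36 CPM (SD, n = 5) for Cgas+/+, at 15.8 and 22.4 CPM for Cgas+/- and at 21.6 and 33.1 CPM for Cgas-/-. No library lacked Cgas UMIs, the lowest level of the 27 being 15.8 CPM, and the source of those in libraries labelled Cgas-/- was not tested. Every comparison between Cgas genotypes rests on the labels, by which groups are named throughout. Of 199561 distinct barcodes, 5203 occurred in 2 or more libraries. Striatal projection neuron-like nuclei numbered 2001 in P301S Cgas+/- replicate 1 and at most 356 in any other library. Whether astrocyte-like nuclei of that library came in part from outside the hippocampus was not tested.

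Reactive astrocytes are astrocytes that respond to injury, infection or protein aggregates, with a changed cytoskeleton, surface and secretion. Cytokines of the interleukin-6 family bind receptors such as the oncostatin M receptor, which act through Janus kinases to phosphorylate STAT3, and STAT3 then enters the nucleus and activates genes that include Gfap. Gfap and Vim encode intermediate filament proteins, Cd44 a hyaluronan receptor at the cell surface, Osmr the oncostatin M receptor, Stat3 the transcription factor, Serpina3n and Lcn2 secreted proteins (a protease inhibitor and the siderophore-binding lipocalin 2), Aqp4 the water channel of astrocyte endfeet and Thbs4 a secreted thrombospondin.

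The promoters of Gfap and Osmr are shown because Gfap is a known target of STAT3 and Osmr lies at the head of the same pathway. They are RefSeq sequences of GRCm38.p6 from 250 bases before the transcription start, each ending with the last base of the single motif found in it, which is in capitals. Both lie inside the gene spans given further below, so the start used here is not the outer end of those spans.

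Gfap, chr11:102897194-102897450, minus strand: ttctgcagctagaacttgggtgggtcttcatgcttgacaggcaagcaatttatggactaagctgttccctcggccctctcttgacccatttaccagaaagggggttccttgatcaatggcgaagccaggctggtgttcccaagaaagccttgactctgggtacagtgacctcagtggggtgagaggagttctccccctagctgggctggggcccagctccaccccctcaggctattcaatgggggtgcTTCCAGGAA

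Osmr, chr15:6874304-6874563, minus strand: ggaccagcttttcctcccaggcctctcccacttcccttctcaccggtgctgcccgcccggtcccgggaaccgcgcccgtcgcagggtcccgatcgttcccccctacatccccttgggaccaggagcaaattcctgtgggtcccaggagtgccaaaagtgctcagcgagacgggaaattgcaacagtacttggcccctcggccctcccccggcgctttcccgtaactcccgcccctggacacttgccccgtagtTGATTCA

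In the Gfap promoter the capitals mark a match to TTCNNNGAA, the palindrome bound by STAT proteins, at bases -2 to 7 from the start. In that of Osmr they mark a match to TGANTCA, the type of element bound by AP-1, at bases 4 to 10. Both strands of a window from 250 bases before to 50 after the start were searched in the 8 of 9 genes with an entry. TTCNNNGAA occurred in 1 of the 8 and in 8.30% of 32851 promoters, and TGANTCA in 1 of the 8 and in 7.81%. A match is a description of the letters and shows no binding.

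The 9 genes differed in how far they were particular to astrocyte-like nuclei. Over all libraries, Thbs4, Gfap and Aqp4 had their highest mean level there. Gfap was at 389 ± 340 CPM (SD, n = 27 libraries) against 32.7 ± 27.6 CPM (n = 22) in the next class, ependymal-like nuclei, and lay above it in 22 of 22 libraries with both classes. Thbs4 was at 71.8 ± 39.4 CPM (n = 27) and at a mean of 4.22 CPM or less in every other class. Aqp4 was at 307 ± 114 CPM (n = 27), and at 189 ± 85.9 CPM (n = 22) in ependymal-like nuclei, which line the ventricles and also carry this water channel. In the Cgas+/+ group alone Aqp4 was at 231 ± 16.4 CPM (n = 5) in astrocyte-like and 267 ± 128 CPM (n = 5) in ependymal-like nuclei.

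The other genes were shared with vessels, immune cells or oligodendrocytes. Vim was highest in endothelial-like nuclei at 130 ± 74.9 CPM (n = 25), against 23.3 ± 25.1 CPM (n = 27) in astrocyte-like nuclei. Osmr was highest in mural-like nuclei (204 ± 125 CPM, n = 25) and endothelial-like nuclei (174 ± 72.8 CPM, n = 25), which differed by less than 1 SD, and astrocyte-like nuclei followed at 73.0 ± 76.9 CPM (n = 27). The receptor thus had its highest levels in cells of the vessel wall.

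Cd44 was highest in T cell-like nuclei at 253 ± 158 CPM (n = 16), a class of only 293 nuclei, and second in astrocyte-like nuclei at 60.2 ± 75.2 CPM (n = 27). In the Cgas+/+ group alone Cd44 was at 9.66 ± 3.64 CPM (n = 5) in astrocyte-like nuclei. There it was at 18.9 ± 17.5 CPM (n = 5) in ependymal-like and 20.3 ± 17.3 CPM (n = 3) in fibroblast-like nuclei. Stat3 was found in every class, with T cell-like, microglia-like, fibroblast-like, endothelial-like and astrocyte-like nuclei highest, with means over all their libraries from 297 to 195 CPM, each within 1 SD of the next. The libraries behind these means differ, 14 of the 16 with T cell-like nuclei carrying P301S, and the order was not the same in each group. Astrocyte-like nuclei had a median of 119 CPM against 176 CPM in microglia-like nuclei in the Cgas+/+ group, and of 254 against 236 CPM in the P301S Cgas+/+ group. Serpina3n was at 13.8 ± 17.6 CPM (n = 27) in astrocyte-like and 11.4 ± 15.2 CPM (n = 27) in oligodendrocyte-like nuclei, which did not differ beyond their spread. Lcn2 was at the limit of detection, with 33 UMIs in all astrocyte-like nuclei and 10 in endothelial-like nuclei, a much smaller class. Pooled over the P301S libraries its level was 0.530 CPM in astrocyte-like and 4.12 CPM in endothelial-like nuclei, the latter from 5 UMIs.

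**Figure D1:**
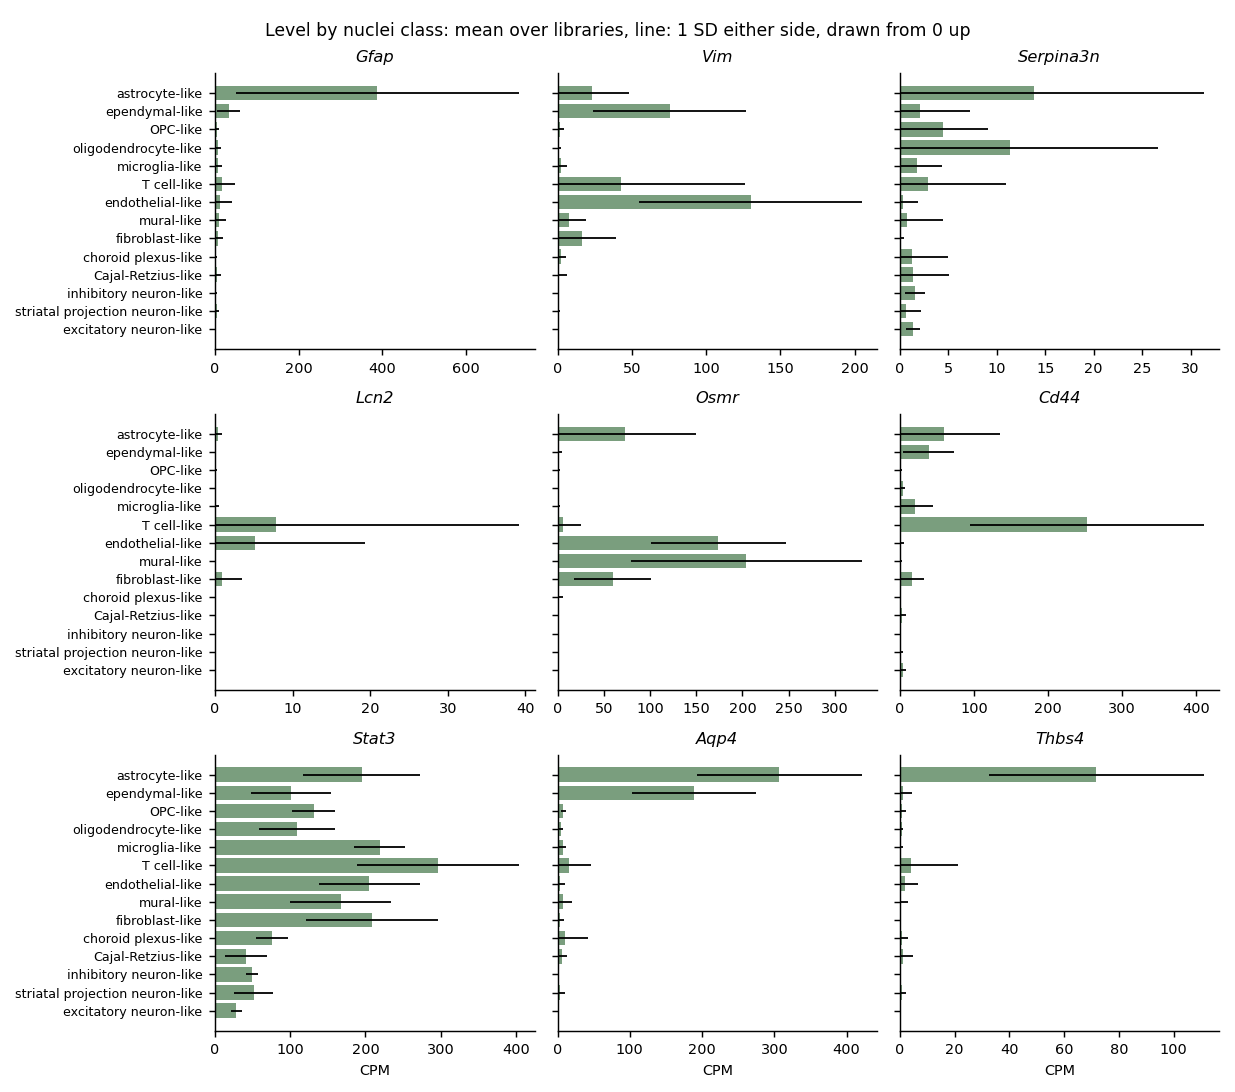
Mean level of each gene in CPM (horizontal axis) in 14 classes of nuclei (vertical axis), over libraries with at least 5 nuclei of the class; lines show 1 SD either side. Gfap, Aqp4 and Thbs4 have their longest bar in astrocyte-like nuclei, Vim and Osmr in vessel cells, and Cd44 in T cell-like nuclei.

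The first comparison asked which of these genes differ with tau when Cgas is intact. All 8 genes with enough UMIs to be tested had a positive log2 fold change between P301S Cgas+/+ and Cgas+/+ libraries, with a median of 2.58 against 0.001 over all 13006 genes tested, but no member passed an adjusted p of 0.05 in edgeR. The test called 1 gene, 0.00769% of those tested. At an unadjusted p under 0.05, 7 of the 8 passed, against 11.8% of all genes, and DESeq2 called 6 of the 8 among 171 genes (1.31%).

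Gfap, a filament gene used as a marker of the reactive state, was at 115, 215, 99.7, 103 and 98.6 CPM in the 5 Cgas+/+ libraries. In the 6 P301S Cgas+/+ libraries it ran from 237 to 1209 CPM with a median of 461. The groups did not overlap, and the log2 fold change was 2.28 ± 0.601 (SE, adjusted p = 0.214). Across all genes, 1.08% had every P301S Cgas+/+ library above every Cgas+/+ library.

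Vim, the second filament gene, was at 4.25, 8.81, 4.50, 4.87 and 4.74 CPM in the Cgas+/+ libraries and from 6.07 to 78.0 CPM with a median of 33.1 in the P301S Cgas+/+ libraries. Of the 6, 5 lay above all Cgas+/+ libraries, replicate 2 being the exception. The log2 fold change was 2.89 ± 0.815 (SE, adjusted p = 0.222).

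Cd44 was at 8.77, 14.9, 9.0, 4.87 and 10.8 CPM against 13.7 to 229 CPM with a median of 94.8, and again P301S Cgas+/+ replicate 2 was the only one within the range of the Cgas+/+ libraries. The log2 fold change was 3.66 ± 1 (SE, adjusted p = 0.214).

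Of the signalling genes, Osmr was at 13.8, 10.2, 15.7, 8.85 and 23.5 CPM in the Cgas+/+ libraries and from 33.5 to 230 CPM with a median of 116 in the P301S Cgas+/+ libraries, with no overlap. Its log2 fold change was 3.07 ± 0.793 (SE, adjusted p = 0.214). Stat3 was at 119, 105, 126, 119 and 131 CPM against 162 to 352 CPM with a median of 254. Here too the groups did not overlap, and the log2 fold change of 1.06 ± 0.226 (SE, adjusted p = 0.213) had rank 4 among all genes tested by p.

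The secreted protease inhibitor Serpina3n had the largest fold change of the members. It was at 1.06, 2.37, 0.375, 0.885 and 0.861 CPM in the Cgas+/+ libraries and from 1.12 to 67.4 CPM with a median of 20 in the P301S Cgas+/+ libraries, with replicate 2 alone inside the Cgas+/+ range. The log2 fold change was 4.61 ± 1.14 (SE, adjusted p = 0.213). Of its close paralogues, Serpina3i had 51 UMIs in astrocyte-like nuclei, Serpina3m 9 and Serpina3g 3, against 1280 for Serpina3n.

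Lcn2 was too sparse to be tested. In astrocyte-like nuclei it had 0 UMIs in all 9 tau-free libraries and 33 UMIs in 10 of the 18 P301S libraries, at least 5.64-fold higher against a floor of 3 counts over the tau-free group. In endothelial-like nuclei it had 5 UMIs in 3 P301S libraries and 5 UMIs in 1 tau-free library. In astrocyte-like nuclei of the P301S Cgas+/+ libraries it was between 0 and 1.15 CPM with a median of 0.565, in P301S Cgas+/- between 0 and 2.21 with a median of 0.299, and in P301S Cgas-/- between 0 and 1.24 with a median of 0.

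The remaining pair differed least. Aqp4 was at 225, 259, 228, 216 and 226 CPM in the Cgas+/+ libraries against 245 to 633 CPM with a median of 350, a log2 fold change of 0.72 ± 0.267 (SE, adjusted p = 0.295). Thbs4 was at 54.2, 77.6, 63.4, 36.3 and 30.4 CPM against 48.7 to 109 CPM with a median of 60.9, and the groups overlapped, with a log2 fold change of 0.32 ± 0.374 (SE, adjusted p = 0.805).

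How many genes passed the threshold changed when a single library was left out. Without P301S Cgas+/+ replicate 2, 80 genes were called, with Serpina3n (adjusted p = 0.0497) and Stat3 (adjusted p = 0.0321) among them.

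**Figure D2:**
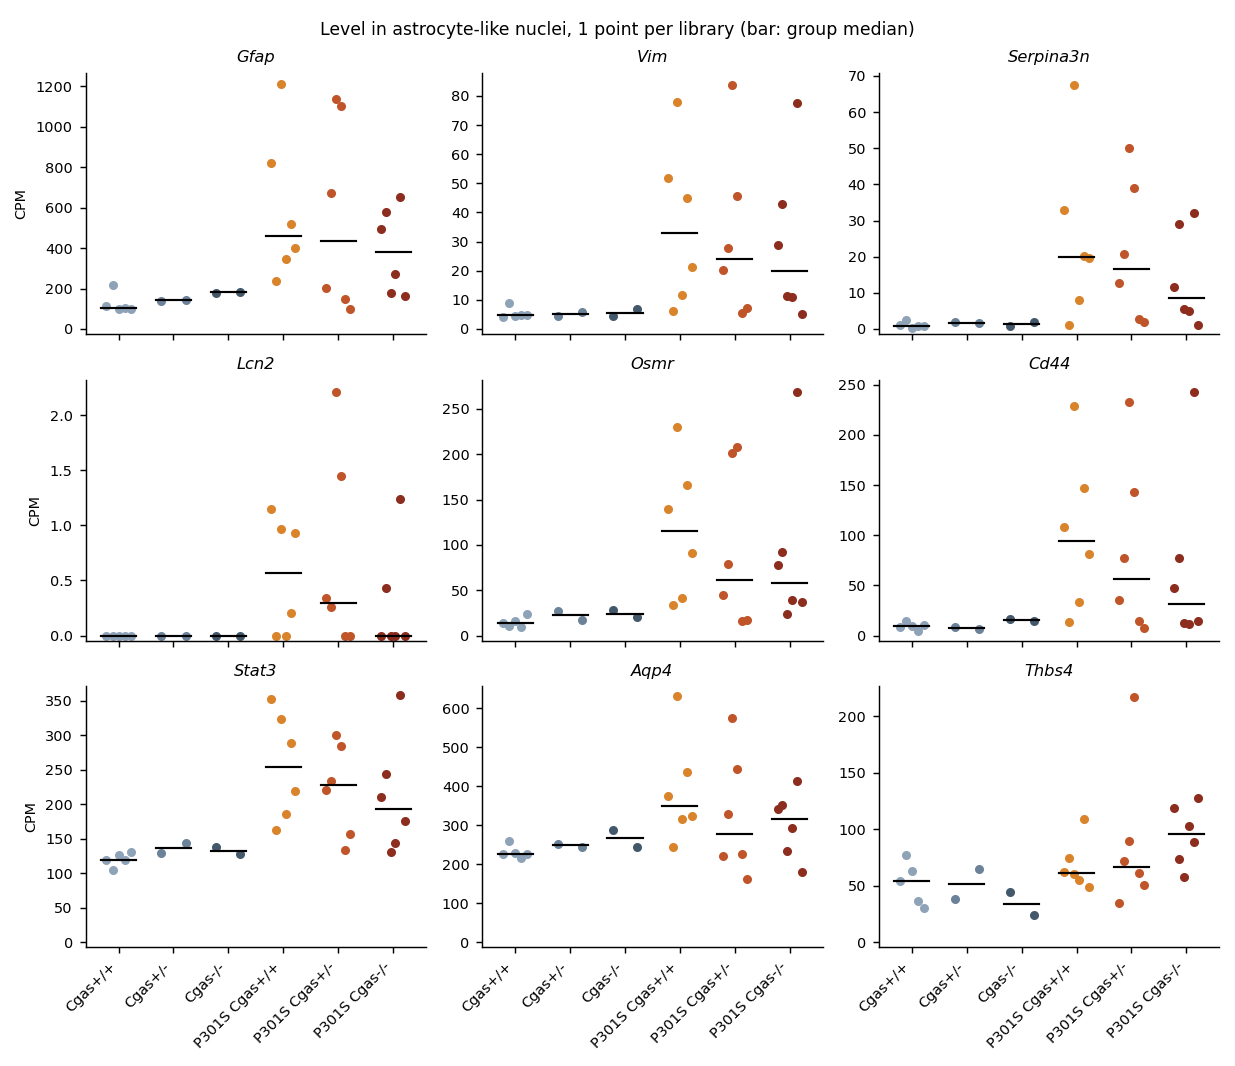
Level of each gene in CPM (vertical axis, from 0) in astrocyte-like nuclei of each of the 27 libraries by group (horizontal axis), with group medians as bars. The tau-free libraries lie close together for Gfap, Vim, Serpina3n, Osmr, Cd44 and Stat3, while the 18 P301S libraries spread from near tau-free levels to several times higher; for Thbs4 most groups overlap, and every P301S Cgas-/- library lies above both Cgas-/- libraries.

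Taking all 18 P301S libraries against all 9 tau-free libraries, with each of the 6 groups weighted equally, 381 of 13782 genes were called in edgeR (2.76%), 291 of them higher in P301S. Higher calls made up 2.11% of genes tested. Of the 8 members tested, 6 rose: Gfap, Vim, Serpina3n, Osmr, Cd44 and Stat3. Aqp4 (log2 fold change 0.43 ± 0.194 SE, adjusted p = 0.251) and Thbs4 (0.70 ± 0.290 SE, adjusted p = 0.202) did not pass. This comparison shares libraries with the first and is no separate evidence for it.

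Markers of some other cell types in the same astrocyte-like nuclei were also higher in some P301S libraries. The 9 oligodendrocyte markers, all detected, summed to 115 to 223 CPM with a median of 149 in tau-free libraries and to 119 to 317 CPM with a median of 224 in P301S libraries. The 9 microglia markers, all detected, summed to 51.5 to 70.5 CPM (median 60.7) and 52.9 to 132 CPM (median 81.1). The 8 ependymal markers, all detected, summed to 8.41 to 19.7 CPM (median 15.8) and 9.26 to 84.3 CPM (median 26.4), and the 6 T cell markers, 2 of them at 0, to 2.84 to 6.89 and 1.91 to 10.6 CPM. Other lists had a lower median in P301S than in tau-free libraries. For endothelial markers it was 8.90 against 13.7 CPM and for fibroblast markers 19.5 against 22.6 CPM. For excitatory neuron markers it was 123 against 151 CPM and for inhibitory neuron markers 817 against 1014 CPM. OPC, choroid plexus, Cajal-Retzius and striatal projection neuron markers were also lower, and mural, border macrophage and committed OPC markers higher. The ranges overlapped for each list, and the part of these cell types in the members' differences was not tested.

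Among the 6 called, Stat3 had the smallest fold change, 1.79-fold (95% interval 1.41 to 2.26, adjusted p = 0.0241), with 15 of 18 P301S libraries above all 9 tau-free libraries. Serpina3n had the largest of the 6, 15.8-fold (4.96 to 50.2, adjusted p = 0.0241), also with 15 of 18 above. Cd44 was 9.26-fold higher (3.21 to 26.7, adjusted p = 0.0304), with 12 of 18 above.

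Among the others, Vim was 6.84-fold higher (2.92 to 16.0, adjusted p = 0.0241) and Osmr 5.35-fold higher (2.34 to 12.2, adjusted p = 0.0360). Gfap was 3.63-fold higher (1.91 to 6.89, adjusted p = 0.0361), with 13 of 18 libraries above all tau-free libraries and 1, P301S Cgas+/- replicate 6 at 97.1 CPM, below them all. No member separated the 18 from the 9 completely, which 0.0145% of genes did.

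The calls did not hold when any 1 of the 4 tau-free libraries labelled with 1 or no Cgas copy was left out. Each of these fits leaves a single library in its group, which keeps the same weight as the other groups. Whether the calls depend on these 4 libraries or on that weighting cannot be told from such fits. The members' fold changes kept their direction in them. Without P301S Cgas+/- replicate 3, Vim, Serpina3n and Stat3 stayed past the threshold among 97 genes called (0.707%). Without P301S Cgas-/- replicate 2, P301S Cgas-/- replicate 5 or Cgas+/+ replicate 4, Gfap and Osmr did not pass, where 123, 114 and 173 genes were called. The software version in the file headers, which all 4 of those libraries share, left 2 members (Serpina3n and Stat3) when fitted as a block, where 0.704% of genes were called. Stat3 alone was called when only the 12 libraries of version 3.0.2, all of them male, were used, where 0.608% were.

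Within Cgas+/- and within Cgas-/- libraries, the log2 fold change with the transgene was positive for 8 of 8 members tested, with no member and 0 genes called in edgeR (0%). At an unadjusted p under 0.05 there were 855 and 993 genes, 6.2% and 7.21% of those tested, and 6 and 4 members. With 2 tau-free libraries in each, every P301S library lay above both for Thbs4 alone within Cgas-/-, where 5.92% of all genes did so.

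The second question was whether the members differ with the loss of Cgas in P301S mice. None did beyond the spread between libraries. In P301S Cgas-/- against P301S Cgas+/+ libraries edgeR called 0 of 13006 genes (0%), with 613 genes (4.71%) and no member at an unadjusted p under 0.05, and DESeq2 called 1 gene that was no member.

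Gfap ran from 165 to 652 CPM with a median of 382 in P301S Cgas-/- libraries, against the median of 461 with Cgas intact, a log2 fold change of -0.72 (95% interval -1.85 to 0.41). Serpina3n ran from 1.07 to 32.0 CPM with a median of 8.60, a log2 fold change of -0.98 (-2.59 to 0.63). Cd44 ran from 11.9 to 243 CPM with a median of 31.0, a log2 fold change of -0.98 (-2.70 to 0.74). The groups overlapped for each gene, and each interval includes 0.

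Vim ran from 5.0 to 77.6 CPM with a median of 20.1 (log2 fold change -0.49, 95% interval -1.84 to 0.87), and Osmr from 23.6 to 269 CPM with a median of 58.5 (-0.53, -1.92 to 0.85). Stat3 ran from 131 to 358 CPM with a median of 193 (-0.29, -0.73 to 0.14), and Aqp4 from 179 to 413 CPM with a median of 317 (-0.37, -0.89 to 0.15). Thbs4 was the one member with a positive value, from 57.9 to 128 CPM with a median of 96.2 (0.49, -0.23 to 1.21). All 8 adjusted p-values were 1.

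A single Cgas copy gave the same picture in the test. In P301S Cgas+/- against P301S Cgas+/+ libraries edgeR called 0 genes (0%), with 397 genes (3.05%) and no member at an unadjusted p under 0.05, and DESeq2 called 0 genes. Gfap ran from 97.1 to 1135 CPM with a median of 436 in P301S Cgas+/- libraries (log2 fold change -0.15, 95% interval -1.26 to 0.95), and Stat3 from 133 to 300 CPM with a median of 227 (-0.22, -0.66 to 0.21). The interaction of P301S and Cgas deletion, which asks whether the effect of the transgene differs between Cgas+/+ and Cgas-/-, had an adjusted p of 1 for all 8 members, and edgeR called 0 genes (0%) with 625 genes (4.53%) at an unadjusted p under 0.05.

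**Figure D3:**
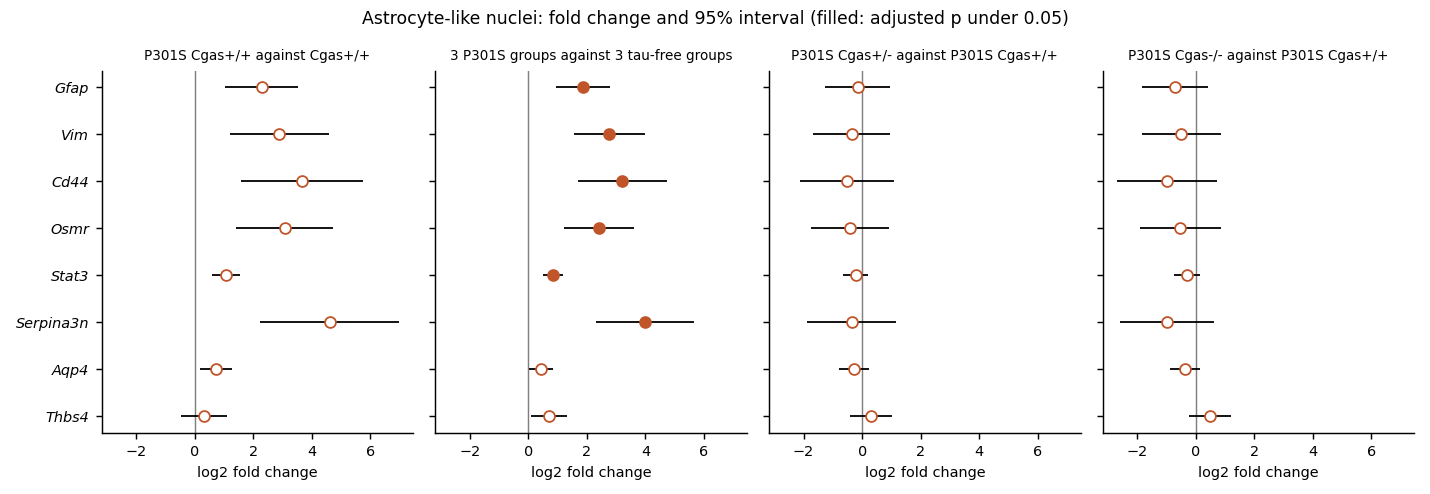
Log2 fold change (horizontal axis) with 95% interval for 8 genes (vertical axis) in astrocyte-like nuclei in 4 comparisons; filled points passed an adjusted p of 0.05 in edgeR. Filled points occur only for 6 genes in the comparison of all P301S with all tau-free libraries, and every interval of the 2 comparisons between P301S groups includes 0.

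The order of the P301S libraries was much alike for 6 of the members. The libraries with the highest Gfap, P301S Cgas+/+ replicate 3 (1209 CPM) and P301S Cgas+/- replicates 3 (1135 CPM) and 4 (1102 CPM), were also high in Osmr at 230, 201 and 208 CPM. Over the 27 libraries, the 15 pairs among Gfap, Vim, Serpina3n, Osmr, Cd44 and Stat3 had Pearson correlations of log2(CPM + 1) from 0.89 to 0.98, and 0.79 to 0.96 after the group means were taken off. Aqp4 correlated with these 6 at 0.78 to 0.92, and at 0.75 to 0.94 without the group means. Thbs4 correlated with them at 0.42 to 0.54, and at 0.17 to 0.46 without the group means. The points share libraries, depth and nuclei, and the values are descriptions.

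By the same measure, Bcl3 was among the genes most like 4 of the members. For Gfap they were Parp3, Sbno2, C4b, Bcl3 and Cd44 (0.957 to 0.942), for Vim Serpina3n, Socs3 and Bcl3, for Serpina3n Vim, Parp3 and Sbno2, and for Osmr Plce1, Bcl3 and Stat3. For Cd44 they were Cpne8, Bcl3 and Sbno2, for Stat3 Osmr, Plce1 and Cpne8, and for Aqp4 Slc14a1, Col4a5 and Gfap. Thbs4 stood apart, with Cmya5, Igfbp5 and Daam1 at 0.787 to 0.733. The names depended on the group means. When these were taken off, all 3 stayed among the nearest for Cd44, 2 of 3 for Osmr, Stat3 and Aqp4, 2 of 5 for Gfap, and 1 of 3 for Vim, Serpina3n and Thbs4.

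Clustering, which used none of the members, gave 2 astrocyte-like clusters, of 21272 and 5633 nuclei. The smaller one held 3.39 to 17.0% of the astrocyte-like nuclei in tau-free libraries, with a median of 8.87%, and 7.21 to 69.5% in P301S libraries, with a median of 23.9%. Its level lay above that of the larger cluster in 27 of 27 libraries for Gfap, Vim, Cd44, Aqp4 and Thbs4, in 26 for Stat3, in 24 for Serpina3n and in 23 for Osmr. Cd44 was at 154 ± 99.7 CPM (SD, n = 27) in the smaller and 8.49 ± 5.88 CPM in the larger cluster, and Gfap at 819 ± 373 and 198 ± 121 CPM. Of the 33 Lcn2 UMIs, 32 were in the smaller cluster (97.0%). Within that cluster the bound on the Lcn2 difference was lower, at least 1.47-fold higher in P301S libraries against a floor of 3 counts over the tau-free group.

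Levels of Gfap, Cd44, Osmr, Stat3 and Aqp4 over the whole class were higher in libraries with a larger share of the smaller cluster, and the number of such nuclei and the RNA in each cannot be told apart in the sum. Within the smaller cluster alone, 3 members rose between Cgas+/+ and P301S Cgas+/+ libraries, among 116 of 7818 genes called (1.48%): Osmr (log2 fold change 3.15, adjusted p = 0.0323), Vim (1.91, adjusted p = 0.0489) and Stat3 (0.92, adjusted p = 0.0219). The Cgas+/+ libraries held only 25 to 206 nuclei of this cluster each. Over that group Vim had 36 UMIs in it, Osmr 41 and Stat3 263. In the larger cluster no member and 0 genes were called in that comparison (0%). Over all P301S libraries, the 6 members called in the whole class were also called within the smaller cluster, where 8.59% of genes were, and Serpina3n (2.89, adjusted p = 0.0367) and Stat3 (0.56, adjusted p = 0.0367) within the larger, where 0.187% were.

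Within the clusters the sign of the Aqp4 difference was not the same in both comparisons, and none of its values was called. Between Cgas+/+ and P301S Cgas+/+ libraries its log2 fold change was 0.27 in the larger and 0.11 in the smaller cluster, against 0.72 over the class. Over all P301S libraries it was -0.06 and -0.25, against 0.43 over the class. Aqp4 and Thbs4 were higher in the smaller than in the larger cluster, by a median of 2.96-fold and 4.44-fold within libraries.

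**Figure D4:**
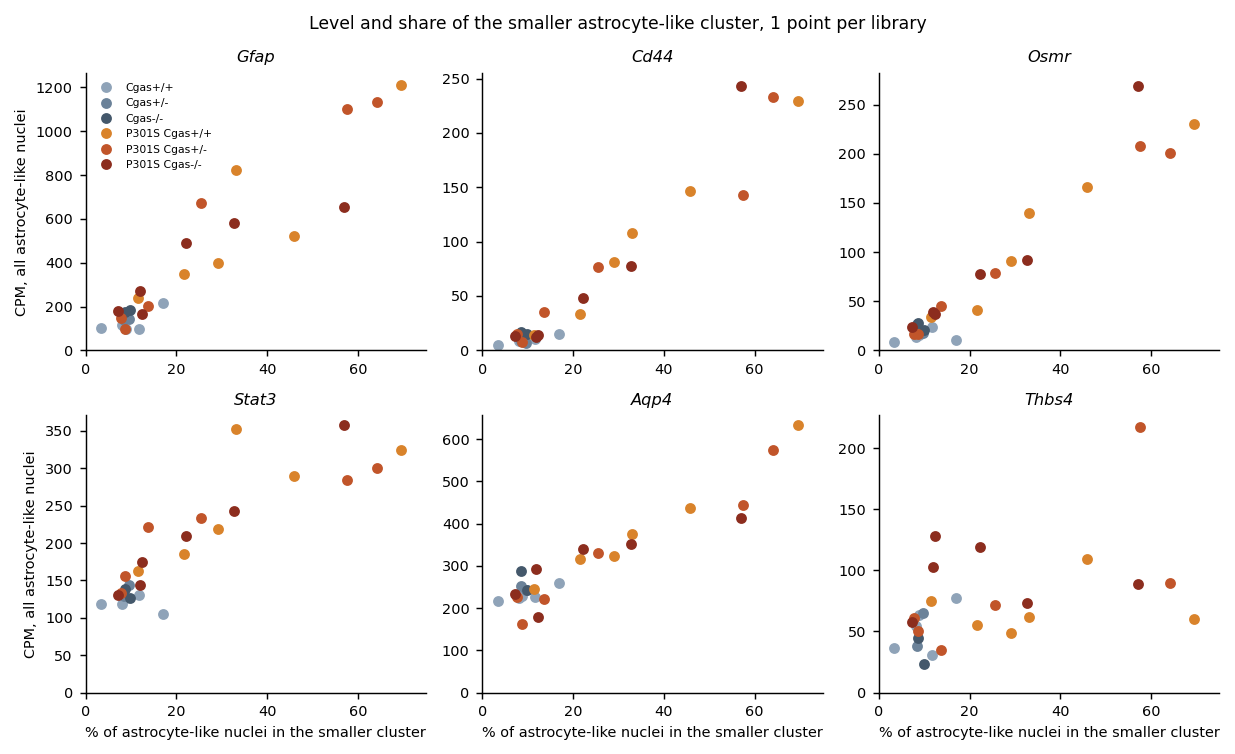
Level in CPM in all astrocyte-like nuclei (vertical axis, from 0) against the percentage of them in the smaller cluster (horizontal axis), 1 point per library, coloured by group. Tau-free libraries lie at 3.39 to 17.0% and P301S libraries at 7.21 to 69.5%; Gfap, Cd44, Osmr, Stat3 and Aqp4 are higher in libraries with a larger share, and Thbs4 is scattered.

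Shares of nuclei with a UMI were also compared. After thinning every astrocyte-like nucleus to 1000 UMIs, Gfap was found in 11.7% of tau-free and 26.1% of P301S nuclei (25.6% and 47.2% before thinning). In excitatory neuron-like nuclei, taken as the background of free RNA, the shares were 0.0640% and 0.206%. Median UMIs per astrocyte-like nucleus were 2607 to 3455 in tau-free and 2744 to 5670 in P301S libraries.

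In P301S libraries Osmr was found in 14.3% of thinned nuclei with a Gfap UMI and 3.43% of those without, higher in 18 of 18 libraries. Cd44 was found in 12.9% and 2.65% (17 of 18 libraries), Serpina3n in 3.74% and 0.757% (15 of 18) and Stat3 in 26.6% and 15.2% (18 of 18). Thbs4 differed least, at 7.57% and 5.30% (14 of 18). Each of these genes was found more often where Gfap was found, and so it was over the tau-free nuclei. There Osmr was found in 3.21% and 1.64% (8 of 9 libraries) and Cd44 in 3.46% and 0.772% (8 of 9). Stat3 was found in 17.4% and 10.5% (9 of 9) and Thbs4 in 6.08% and 3.61% (6 of 9). Serpina3n was rare, at 0.338% and 0.152% (3 of 9).

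Other genes of reactive astrocytes and of the STAT3 route were described by lists chosen with results of these data known. Their calls over all P301S libraries share the limit given above for the members. Most were lost when any tau-free library labelled Cgas+/- or Cgas-/- was left out, which leaves a single library in its group. Of 31 further reactive genes, 20 were tested over all P301S libraries and 14 rose (2.76% of all genes were called), with a median log2 fold change of 2.31 against 0.005 for all genes. They were Ggta1, Serping1, Cp, Tm4sf1, Ptx3, Gbp2, Cxcl10, Srgn, Tgm1, Cd109, H2-D1, Iigp1, Clcf1 and Emp1. Gbp2, an interferon-induced GTPase, had 0.688 ± 0.610 CPM (SD, n = 9) in tau-free and 6.01 ± 4.29 CPM (n = 18) in P301S libraries, and the chemokine gene Cxcl10 0.768 ± 0.603 and 8.75 ± 7.82 CPM.

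Of 17 tested genes of the oncostatin M, interleukin-6 and STAT3 pathway, 6 rose and none fell, where 2.11% of all genes rose. They were the receptor Il6ra, the ligand Clcf1, the feedback inhibitor Socs3, and the transcription regulators Bcl3, Junb and Cebpd. Socs3 had 0.445 ± 0.289 CPM in tau-free and 8.96 ± 8.84 CPM in P301S libraries (log2 fold change 4.79 ± 0.942 SE, adjusted p = 0.0241), and Bcl3 0.448 ± 0.403 and 19.6 ± 20.4 CPM (5.46 ± 1.14, adjusted p = 0.0241), with 17 of 18 P301S libraries above all tau-free ones. The ligand of the receptor, Osm, had 1 UMI in all astrocyte-like nuclei. In microglia-like nuclei it had 32 UMIs in 12 of the 18 P301S libraries and 7 in 6 of the 9 tau-free libraries. These counts were not scaled to the total UMIs of the class. That total was larger over the P301S libraries, so the counts show no difference in level.

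Of 16 homeostatic genes of resting astrocytes none passed in any comparison by genotype. Over all P301S libraries, where 2.76% of all genes passed, their median log2 fold change was -0.18 against 0.005 for all genes. The gap junction gene Gja1 passed between the sexes (0.36 ± 0.0925 SE higher in females, adjusted p = 0.0416). Of 17 tested disease-associated genes 2 rose, the actin-binding Gsn (1.19 ± 0.318) and complement C3 (5.33 ± 1.43). Of 9 genes of the complex that anchors Aqp4 at the endfoot, 1 fell, the dystrophin gene Dmd (-0.36 ± 0.0835, adjusted p = 0.0272), and of 7 tested partners of Thbs4, Lcn2 and Cd44 the hyaluronan synthase Has2 rose (4.96 ± 1.08, adjusted p = 0.0246). In the comparison of P301S Cgas+/+ with Cgas+/+ libraries none of the lists had a gene past the threshold in edgeR.

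Outside astrocyte-like nuclei the largest differences were those of Cd44, Gfap and Serpina3n. In microglia-like nuclei of all P301S libraries Cd44, Gfap and Stat3 rose, where 7.57% of 9686 genes did. Cd44 had 11, 3 and 0 UMIs in the Cgas+/+, Cgas+/- and Cgas-/- groups and 231, 121 and 182 in the corresponding P301S groups, between 0 and 11.1 CPM and between 0 and 85.8 CPM per library (log2 fold change 4.40 ± 1.14 SE, adjusted p = 0.0181). Gfap was between 0 and 5.56 CPM against 0 to 37.0 CPM (2.36 ± 0.716, adjusted p = 0.0327), and Stat3 between 155 and 209 CPM against 186 to 290 CPM (0.29 ± 0.0895, adjusted p = 0.0312).

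Astrocyte markers in those nuclei summed to 673 to 928 CPM (median 777) in tau-free and 466 to 954 CPM (median 714) in P301S libraries. Whether this was RNA from astrocytes, and its part in the Gfap difference, was not tested. No member was called there without Cgas+/- replicate 2, Cgas-/- replicate 1 or Cgas-/- replicate 2, where 2.15%, 4.82% and 5.48% of genes were called in either direction. Cd44 alone was called without Cgas+/- replicate 1, P301S Cgas+/- replicate 3 or P301S Cgas-/- replicate 5 (7.09%, 9.34% and 8.18% of genes). Stat3 did not pass without P301S Cgas-/- replicate 2, P301S Cgas+/- replicate 2 or Cgas+/+ replicate 3, and Gfap did not without Cgas+/+ replicate 4.

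In oligodendrocyte-like nuclei Serpina3n was between 0.653 and 3.54 CPM in tau-free and between 1.84 and 53.3 CPM in P301S libraries, a log2 fold change of 3.62 ± 0.929 (SE) that did not pass (adjusted p = 0.110), where 0.00768% of genes did. Stat3 was at 0.99 ± 0.242 (adjusted p = 0.0876) and Gfap at 1.81 ± 0.508 (adjusted p = 0.119), and DESeq2 called all 3 along with 1.5% of genes. In excitatory neuron-like nuclei (2.19% of genes called) Gfap (adjusted p = 0.0567) and Stat3 (adjusted p = 0.0699) did not pass in edgeR and did in DESeq2, which called 5.85% of genes. Astrocyte markers summed to 529 to 653 CPM in tau-free and 308 to 677 CPM in P301S libraries in oligodendrocyte-like nuclei. In excitatory neuron-like nuclei they summed to 827 to 1094 and 771 to 1204 CPM. Whether this was RNA from astrocytes, and its part in these Gfap differences, was not tested. No member was called in inhibitory neuron-like (0.0304% of genes called), OPC-like (0.428%) or endothelial-like nuclei (0%).

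Gfap shares its locus with an antisense non-coding gene, Gm26668, which had 3674 UMIs in astrocyte-like nuclei against 36391 for Gfap, and Stat3 overlaps Stat5a on the other strand, with 1149 against 18645 UMIs. The genes lie, in GRCm38, at chr11:102887336-102900912 (Gfap), chr11:100885098-100939540 (Stat3), chr2:13573927-13582826 (Vim), chr2:102811141-102901665 (Cd44), chr15:6813577-6874969 (Osmr), chr12:104406729-104414329 (Serpina3n), chr2:32384633-32388252 (Lcn2) and chr13:92751590-92794818 (Thbs4).

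The comparison was also made by sex. No member differed between females and males over the 4 groups (lowest adjusted p 0.489, where 1.97% of genes were called). In a fit with a term for each group and sex, chosen after seeing the data, Cd44 in P301S Cgas-/- against P301S Cgas+/+ libraries had a log2 fold change of -3.31 (95% interval -5.66 to -0.97, adjusted p = 0.307) in females and 0.87 (-1.10 to 2.83, adjusted p = 1) in males. Gfap had -1.66 (-3.27 to -0.05) and 0.23 (-1.33 to 1.79), and Vim -2.26 (-4.14 to -0.38) and 0.94 (-0.66 to 2.55).

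The difference between the sexes was -4.18 for Cd44 (95% interval -7.24 to -1.12, adjusted p = 0.441), and no member and 0 genes were called for it (0%), with 1328 genes (9.67%) at an unadjusted p under 0.05. Each arm held 3 libraries, all 11 female libraries had header version 3.1.0, and 12 of the 16 male libraries had 3.0.2, so that sex and version can hardly be told apart. In females Gfap was at 1209, 347 and 521 CPM in P301S Cgas+/+ and 179, 273 and 165 CPM in P301S Cgas-/-, which did not overlap, and in males at 823, 237 and 400 CPM and 492, 579 and 652 CPM, which did. In females 7 of the 8 members tested, all but Thbs4, lay below in every P301S Cgas-/- library, as did 12.2% of 13734 genes, and in males none did, against 2.43% of genes. The 7 genes were correlated over libraries and are not separate observations. The share of the smaller astrocyte-like cluster in these females was 69.5, 21.6 and 45.8% against 7.21, 11.9 and 12.4% in P301S Cgas-/-. In males it was 33.1, 11.5 and 29.1% against 22.2, 32.7 and 57.0%. The part of this share in the differences was not tested.

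**Figure D5:**
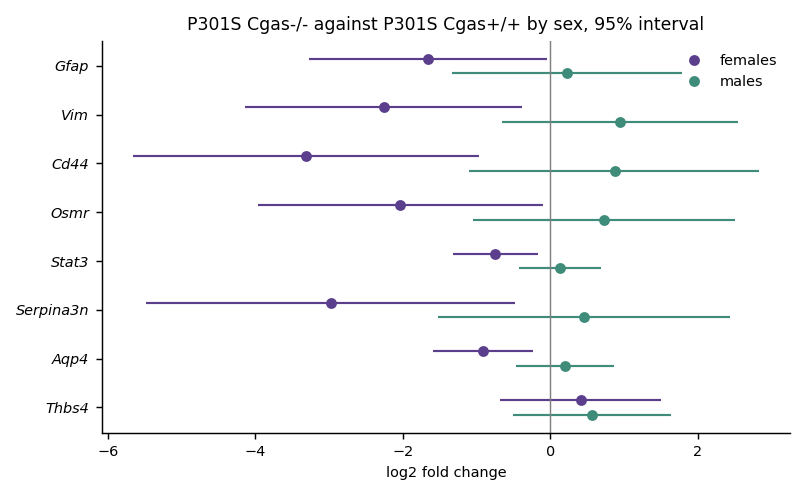
Log2 fold change of P301S Cgas-/- against P301S Cgas+/+ (horizontal axis) with 95% interval for 8 genes (vertical axis) in females and males, 3 libraries in each arm. For 7 genes the female point lies below 0 and the male point above, and the difference passed the threshold for none.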

How the data were processed

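The study made nuclei of frozen hippocampi into 10x libraries (3' chemistry, version 3). The authors aligned reads to mm10 with Cell Ranger, counting pre-mRNA, and deposited raw UMI counts for each gene and barcode. Per the file headers, 12 libraries were written by version 3.0.2 and 15 by 3.1.0, while the study's methods name 3.1.0 alone. The files hold 46091490 to 79484316 UMIs per library, the floor used for Lcn2 covers counting error only, and the 95% intervals of fold changes come from the edgeR fits and include the spread between libraries. Levels are UMIs per library and class, so fewer nuclei, less RNA per nucleus and admixed RNA act on them together.

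Nuclei were kept with 200 to 4000 genes and at most 5% mitochondrial UMIs, and likely doublets were removed with Scrublet in scanpy 1.11.5 (0.8% per 1000 barcodes; 16429 removed). The nuclei were clustered (Leiden, 2000 variable genes, 30 components, without the members and 2 lists of reactive and disease-associated genes) into 48 clusters, of which 39 were named from markers as 14 classes and 9, with 12962 nuclei, stayed unnamed. The naming rule was revised once after names were seen. The members, lists and tests were chosen with earlier results of these data known, and the groups of each comparison were taken from the labels.

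Summed counts were tested across all genes with edgeR 4.0.16 (TMM, filterByExpr, robust quasi-likelihood, Benjamini-Hochberg adjustment, threshold 0.05) in R 4.3.3 with sex as covariate. The 2-library tau-free groups entered only the fits of all 27 libraries. DESeq2 1.42.0 was an alternative. Nuclei are not replicates. Libraries with under 5 nuclei of a class were left out of levels and of the endothelial-like fit. Of the other listed genes, those named passed the threshold in astrocyte-like nuclei, and the genes most like a member are the 3 (5 for Gfap) with the highest correlation. The scripts were tested on simulated data. Normalization, filter, covariates, doublets, depth, clusters, headers and each library in turn were varied. Protein sequences and the promoter of Aqp4 were not used here.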

Additional observations from a re-analysis of the deposited data

Results flagged for a closer look

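Within groups of 4 to 10 libraries, the most extreme level in astrocyte-like nuclei was set against the others by Dixon's test. It stood far from them for 7 of 39 combinations of a group with a gene or with the share of the smaller cluster. Chance gives about 1 in 20 for independent combinations. These are not independent, as most of the genes were correlated over libraries and the same library was flagged for several. In the Cgas+/+ group, replicate 2 was the highest for Gfap at 215 CPM, for Vim at 8.81 CPM and for Aqp4 at 259 CPM. It also had the largest share of the smaller astrocyte-like cluster in that group, at 17.0%. In the P301S Cgas-/- group, replicate 5 was the highest for Osmr at 269 CPM, for Cd44 at 243 CPM and for Lcn2 at 1.24 CPM, and its share of the smaller cluster was 57.0%. Thbs4 was at 217 CPM in P301S Cgas+/- replicate 4. No cause of these values was tested.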

How the results depend on the processing

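Leaving aside the fits without 1 library, a first set of alternatives gave 304 comparisons of a single member with its reported value in astrocyte-like nuclei, of which 290 kept direction and side of the threshold, 8 fell below it, 6 passed it and 0 reversed. Those added after seeing the data gave 184, of which 143 kept both, 9 fell below, 3 passed and 29 reversed. Fits without 1 library gave 768, of which 726 kept both, 33 fell below, 2 passed and 7 reversed. No paired analysis was possible because the labels carry no replicate numbers that tie libraries across groups. Taking astrocyte-like clusters to which no library gave over 20% of nuclei left the fit as it was. The cause of the changes below was not tested.

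For P301S Cgas+/+ against Cgas+/+, 1 gene was called, against 171 with DESeq2, 0 without sex, 0 with the 2 groups only, 0 in each header version, 0 in males, 34 in females, 0 in the larger cluster, 116 in the smaller and 0 to 80 with a library left out. Members called went from 0 to 6 with DESeq2, 3 in the smaller cluster and 0 to 2 with a library left out. For the deletion, genes called went from 0 to 1 with DESeq2, 1 without the filter on low counts, 20 in females and 0 to 2 with a library left out, and for the heterozygous comparison to 6 in females. For all P301S libraries, 381 became 722 with DESeq2, 145 without the filter, 97 with the header version as a block, 131 with thinned nuclei, 82 in version 3.0.2 alone, 24 in the larger cluster, 762 in the smaller and 1 to 795 with a library left out. The 6 members became 3 without the filter, 2 with the block, 5 with thinned nuclei (Osmr lost), 1 in version 3.0.2, 2 in the larger cluster and 0 to 6 with a library left out. With P301S as a single term, 6 members were called.

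Log2 fold changes that changed sign were all below the threshold. In males alone, the deletion gave Gfap 0.23, Vim 0.94, Serpina3n 0.45, Osmr 0.73, Cd44 0.86, Stat3 0.12 and Aqp4 0.19, and the heterozygous comparison Gfap 0.44, Vim 0.74, Serpina3n 0.63, Osmr 0.26, Cd44 0.74, Stat3 0.02 and Aqp4 0.21. In libraries of version 3.0.2, which were all male and so overlap with the males above, the deletion gave Gfap 0.03, Vim 0.36, Serpina3n 0.33, Cd44 0.09 and Aqp4 0.15, and the heterozygous comparison Serpina3n 0.10 and Thbs4 -0.34. In the larger cluster Thbs4 was -0.00 for tau, Vim 0.04 for the deletion and 0.02 for the heterozygous comparison, Thbs4 -0.12 for the latter and Aqp4 -0.06 for all P301S libraries. In the smaller, Thbs4 was -0.53 for tau, Gfap 0.03 for the heterozygous comparison and Aqp4 -0.25 for all P301S libraries. With a library left out, the heterozygous comparison ran from -0.80 to 0.25 for Gfap, -0.79 to 0.07 for Vim, -1.09 to 0.33 for Serpina3n and -0.15 to 0.47 for Thbs4.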
